A study of Mus musculus with 3 samples.

Results

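Integrins are cell surface adhesion receptors, each made of 1 alpha and 1 beta subunit. The 10 genes described here encode integrin subunits found on blood cells (Itgb2, Itgal, Itgam, Itgax, Itga4, Itgb1, Itga6, Itgb3 and Itgb7) and the paralogue Itgb2l. All probe sets that the platform annotation pairs with 1 of these symbols alone were taken, which gave 24 of the 45037 probe sets on the array and 10 of the 18193 genes with a probe set of a single symbol. The rule that picked the probe sets uses gene names and no measured value, but the gene list was drawn up with earlier results of these data known. RNA came from bone marrow cells that were sorted as positive for Sca-1 and negative for lineage markers, a fraction used as haematopoietic progenitors, taken from mice 10 weeks old on the C57BL/6J strain. The 3 groups were wild type, and mice carrying the transgene labelled Tg(Ly6a-KDM1A*v2 as Line 6 or as Line 3, and each group had 1 array. Ly6a encodes Sca-1, the protein used for the sort, and KDM1A encodes the histone demethylase LSD1. All 3 groups shared the strain, the age and the sort. The labels name no promoter for the transgene beyond Ly6a in its name, and the sources used here give neither the number and sex of the mice nor the antibodies against lineage markers.

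Integrins of the beta 2 family pair Itgb2 with an alpha subunit to make LFA-1 (Itgal), Mac-1 (Itgam) or CD11c/CD18 (Itgax), and they hold leukocytes to ICAM proteins, fibrinogen and complement fragments. Itga4 pairs with Itgb1 or Itgb7 and binds VCAM-1, fibronectin or MAdCAM-1, a step in the lodging of stem and progenitor cells in the marrow. Itga6 with Itgb1 is a laminin receptor, and Itgb3 pairs with Itga2b on megakaryocytes or with Itgav. Itgam, known as CD11b, marks mature myeloid cells and is a frequent target of lineage depletion.

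Differences are of log2(intensity + 16), which understates the change of dim genes. A gene was read from its brightest probe set and counted as measured when its value reached the array's median on at least 1 array, as it did for all 10. With 1 array per genotype no difference has a replicate error or a test, so "lower" and "higher" compare single arrays. The precision of every value is limited by the number of arrays. Over the whole series, arrays had medians between 96.2 (wild type) and 116 (Line 6). The mouse LSD1 gene Kdm1a was within 2-fold of wild type on both probe sets, at -0.0067 and 0.29 in Line 6 and at 0.69 and 0.50 in Line 3, and the sources used here do not say whether these probe sets read the transgene. The wild type array stood apart, at least 2-fold from both other arrays in the same direction at 372 genes, against 58 for Line 6 and 135 for Line 3. Xist read 2729, 6152 and 5155 and the Y-linked gene Eif2s3y 2325, 978 and 1031 in wild type, Line 6 and Line 3, so the make-up of the samples by sex cannot be told apart from genotype. Both comparisons with wild type rest on the wild type array, and neither can be given without it. B lineage markers had a median of 1.76 in Line 6 and 0.05 in Line 3, the latter -0.0038 after quantile normalization and -0.05 after cyclic loess. Endothelial markers had medians of 0.68 and 0.74. Of the 7 measured, 3 entered only through the lines, and with no filter the medians of all 12 were 0.71 and 0.79. T and NK markers had medians of 0.32 and 0.35, and erythroid markers 0.04 and 0.11, the last at -0.19 in Line 6 after centring. Kit, a progenitor marker, read 603, 899 and 923, and Ly6a had no probe set of a single symbol in the annotation.

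Of the 10 genes, 2 had intensities lower by 2-fold or more in Line 6 and again in Line 3, namely Itgb2l and Itgam, and none was 2-fold higher in either line. The other 8 stayed within 2-fold of wild type on their brightest probe set, with Itgb2, Itgal and Itgb3 below wild type and Itgax, Itga4, Itgb1, Itga6 and Itgb7 above it. Among all 10864 genes measured, 2.41% passed 2-fold on the lower side in Line 6, 4.46% in Line 3 and 2.07% in both, and 2.57%, 3.57% and 1.35% did so on the higher side. By probe set, 4 of the 21 measured passed on the lower side in both lines and 0 on the higher side. Among all measured probe sets, 1.70% and 1.16% did. Of the 4, 3 belong to Itgb2l, share a target and are not replicates. Of those 3, 2 were measured only through wild type, so they could enter the count only as lower.

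The promoter windows of the 2 genes lower in both lines are shown with that of Itgax, the next protein-coding gene after Itgam on chromosome 7, which was above wild type in both lines. Each line gives the 250 bases before the transcript start, 5′ to 3′ on the gene's strand, from RefSeq on GRCm38.p6. Capitals mark GAGGAA or its reverse complement TTCCTC, the purine-rich core bound by PU.1 and other ETS factors.
Itgb2l: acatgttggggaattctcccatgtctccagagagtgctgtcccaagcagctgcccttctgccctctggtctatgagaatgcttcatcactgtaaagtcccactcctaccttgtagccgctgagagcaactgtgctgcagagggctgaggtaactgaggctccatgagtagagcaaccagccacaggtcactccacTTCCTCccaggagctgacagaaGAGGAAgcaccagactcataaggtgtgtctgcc
Itgam: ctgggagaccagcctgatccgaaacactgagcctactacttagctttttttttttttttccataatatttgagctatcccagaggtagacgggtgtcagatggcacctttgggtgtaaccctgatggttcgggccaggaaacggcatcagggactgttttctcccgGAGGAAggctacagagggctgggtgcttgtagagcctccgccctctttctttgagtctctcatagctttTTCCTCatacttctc
Itgax: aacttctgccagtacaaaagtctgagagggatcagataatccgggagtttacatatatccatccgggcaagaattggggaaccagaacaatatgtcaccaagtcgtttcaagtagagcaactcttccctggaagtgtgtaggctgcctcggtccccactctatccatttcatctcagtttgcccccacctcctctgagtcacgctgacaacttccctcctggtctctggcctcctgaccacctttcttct
These windows lie at chr16:96443615-96443864 on the minus strand for Itgb2l, at chr7:128062390-128062639 on the plus strand for Itgam and at chr7:128129300-128129549 on the plus strand for Itgax. The Itgb2l and Itgam windows each held 2 matches and the Itgax window 0. Over all 32851 promoter windows of this length, 23.3% held at least 1 match and 3.54% held more than 1. RefSeq windows were at hand for 6 of the 10 genes, and the other 3 of these had 1 match in Itgb1 and 0 in Itga4 and Itgb7. The core for RUNX factors, TGTGGT on either strand, was matched 1 time in Itga4 and in none of the other 5 windows, against 14.0% of all windows. The palindrome TTGCGCAA of C/EBP factors was matched in none of the 6, against 0.164% of all windows. The windows had been seen before these motifs were chosen, a match is not a binding site, and a window without a match says nothing of the factor.

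**Figure D1:**
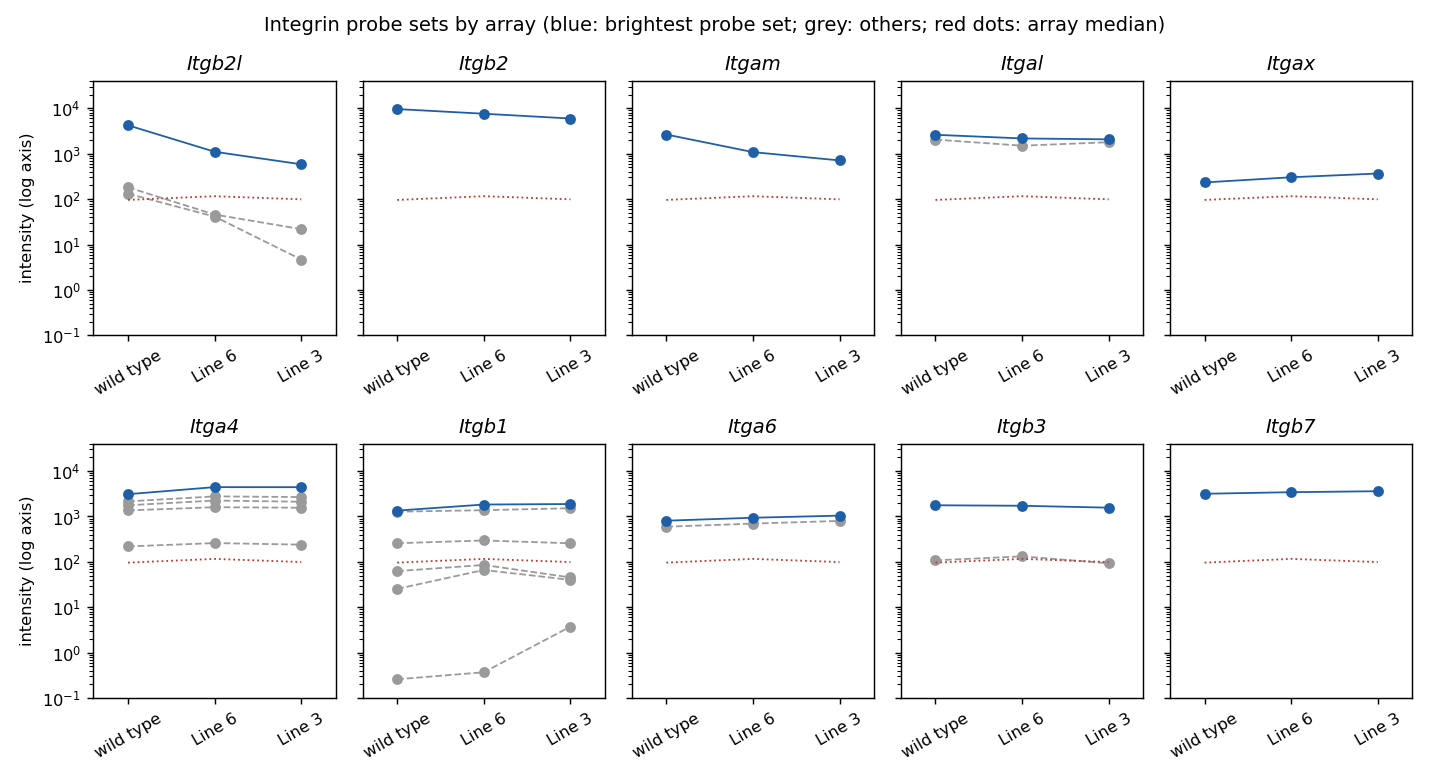
Intensity (log axis) of all 24 integrin probe sets on the wild type, Line 6 and Line 3 arrays, with 1 panel per gene. Blue points are the brightest probe set of the gene, grey points its other probe sets and red dots the median of each array. The brightest probe sets of Itgb2l and Itgam run down from wild type to Line 6 to Line 3, from 4233 to 586 and from 2653 to 713.

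Itgb2l, the beta 2-like subunit also known as Pactolus and found on mouse neutrophils and their precursors, differed most. Whether its probe sets also read the paralogue Itgb2, or the reverse, was not tested. Its brightest probe set read 4233 in wild type against 1106 in Line 6 and 586 in Line 3. The level was highest in wild type and lowest in Line 3. Line 6 was 3.79-fold below wild type (-1.92 on the log2 scale) and Line 3 was 7.06-fold below it (-2.82). Counted from the most negative difference, it was gene 33 of 10864 in Line 6 and gene 30 in Line 3. The other 2 probe sets were dim and had the same order of arrays. One read 182, 45.8 and 21.8 (-1.68 and -2.39). The last read 132, 41.2 and 4.67 (-1.37 and -2.84). These 2 reached an array median only in wild type, so they could have entered the measured set only as lower in the lines.

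Itgam, the alpha subunit of Mac-1, was the other gene past 2-fold. Its single probe set gave 2653 in wild type against 1088 in Line 6 and 713 in Line 3. The order of the arrays was that of Itgb2l. Line 6 was 2.42-fold below wild type (-1.27) and Line 3 3.66-fold below it (-1.87), at place 151 and place 134 of 10864 genes counted from the most negative difference.

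Itgb2, the beta subunit that Itgam, Itgal and Itgax share, gave 9650 in wild type against 7616 in Line 6 and 5979 in Line 3. It was lower by less than 2-fold in each line, at -0.34 and -0.69, so the difference of Itgb2 was smaller than that of Itgam in both. Itgal, the LFA-1 alpha subunit present on most leukocytes, read 2618, 2175 and 2076 on its brighter probe set (-0.27 and -0.33) and 2050, 1506 and 1795 on the other (-0.44 and -0.19). Both probe sets were below wild type in both lines, but the lower line was Line 3 on the first and Line 6 on the second. Itgax, the CD11c subunit of dendritic cells and some macrophages, went the other way, with 234 in wild type against 304 in Line 6 and 367 in Line 3. Its differences were 0.36 and 0.62, and the Line 6 difference was 0.12 after each array was centred on its median. Centring lowers every Line 6 difference and moved the median over all genes from 0.06 to -0.17 in Line 6. Against those medians, Itgax was 0.29 above all genes in Line 6 on either scale, a distance that centring cannot change. After quantile normalization Itgax was at 0.20 in Line 6 and the median over all genes at 0.03. After cyclic loess they were at 0.21 and 0.0088.

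Neutrophil markers were lower on the same arrays. Of 17 measured markers, 5 passed 2-fold on the lower side in both lines (5 in Line 6 and 9 in Line 3) and 0 on the higher side, where 2.07% and 1.35% of all genes did. After centring, which lowers every difference from wild type, 9 passed on the lower side in both, where 2.98% of all genes did. Of the 17, 13 were below wild type in both lines at any size, as were 30.6% of all genes. On the wild type array the 17 read between 3500 and 25535, in cells labelled as free of lineage markers. Their medians were -0.81 in Line 6 and -1.12 in Line 3, against 0.06 and 0.12 over all genes. Summed over the list, wild type read 211782, Line 6 156070 and Line 3 136097, and no marker was at 0. The largest differences were those of Stfa2l1 (-1.76 and -3.97), the collagenase gene Mmp8 (-1.28 and -2.63) and the gelatinase gene Mmp9 (-1.21 and -2.61). The primary granule genes Elane, Mpo, Prtn3 and Ctsg, singled out after their values were seen, were within 0.05 of wild type in Line 6 and above it by 0.10 to 0.31 in Line 3. The part of neutrophil content in the lower Itgb2l and Itgam was not tested. In bulk RNA, fewer cells of a type and less RNA per cell cannot be told apart.

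Monocyte and macrophage markers, some of which also carry Itgam or Itgax, went both ways. Of 17 measured markers, 6 lay below wild type in both lines at any size and 11 above, where 30.6% and 48.8% of all genes did. On the higher side 7 passed 2-fold in both lines and on the lower side 1, where 1.35% and 2.07% of all genes did. Of the 7, Cd5l (65.4 in wild type) and Spic (32.9) were measured only through the lines, so they could enter the count only as higher. The medians were 0.52 and 0.30 (0.28 in Line 6 after centring and 0.13 with plain _at probe sets, and 1.35 in Line 3 with the filter at percentile 75), the summed intensity was 25960, 26656 and 30213 in wild type, Line 6 and Line 3, and no marker was at 0. The largest differences were those of Cd5l (3.30 and 3.55), the mannose receptor gene Mrc1 (1.94 and 2.41) and the lipopolysaccharide co-receptor gene Cd14 (-2.50 and -1.61). Dendritic cell markers had medians of 0.11 and 0.40, with 0 of 10 past 2-fold in both lines and a Line 6 median of -0.12 after centring. Their summed intensity was 15965, 18690 and 20165, with no marker at 0. Whether these cells have a part in the values of Itgax was not tested.

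Itga4, the alpha 4 subunit of VLA-4, was above wild type in both lines on all 5 of its probe sets, by less than 2-fold. The brightest read 3096 in wild type against 4426 and 4417 in the lines, 0.51 above it in each. The lines were nearly level with each other, at -0.0028 between them. Over the 5 probe sets the difference ran from 0.23 to 0.51 in Line 6 and from 0.12 to 0.51 in Line 3.

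Itgb1, the beta 1 subunit shared by Itga4 and Itga6, read 1347, 1831 and 1880 on its brightest probe set (0.44 and 0.48). A second bright probe set read 1275, 1374 and 1518 (0.11 and 0.25), so the size of the difference depended on the probe set. Another read 258, 296 and 257, which is level with wild type in Line 3 (-0.0055). The last 3 were below the median of every array, reading 62.6, 85.5 and 45.3 (0.37 and -0.36), 25.4, 66.2 and 40.1 (0.99 and 0.44), and between 0.259 and 3.74 (0.0098 and 0.28). Of the 6 probe sets, 4 lay above wild type in both lines and 2 had opposite signs in the lines. When each array was first given the median log2 value of the 6, Itgb1 was -0.18 in Line 3. This is not the middle of the 6 differences, of which 4 were above 0 in that line.

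Itga6, the laminin-binding alpha 6 subunit found on stem cells and megakaryocytes, read 807, 937 and 1042 on 1 probe set and 595, 696 and 797 on the other. Both had the order wild type, Line 6, Line 3 from low to high, with differences of 0.21 and 0.36 on the first and 0.22 and 0.41 on the second. The Line 6 difference of the first was -0.02 after centring. Itgb7, the partner of Itga4 in gut homing and also of Itgae, read 3161, 3426 and 3600. Its differences of 0.12 and 0.19 were among the smallest of the 10 genes, and the Line 6 value was -0.12 after centring.

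Stem cell markers were higher on the same arrays. All 12 measured markers lay above wild type in both lines, as did 48.8% of all genes. On the higher side, 5 passed 2-fold in both lines (5 in Line 6 and 7 in Line 3) and 0 on the lower side, where 1.35% and 2.07% of all genes did. The count of 5 became 3 after centring, cyclic loess or a pseudocount of 64. With the filter at percentile 75, which left 7 of the markers, it was 1. Of the 5, Procr, Mecom and Esam lay below the wild type array's median and were measured only through the lines, so they could enter the count only as higher. The medians were 0.87 in Line 6 and 1.17 in Line 3, and summed over the list wild type read 4924, Line 6 8283 and Line 3 10309, with no marker at 0. The largest differences were those of Procr (1.60 and 2.12), Mecom (1.69 and 1.82) and Hoxa9 (1.40 and 1.68). The part of stem cell content in the values of Itga4, Itgb1 and Itga6 was not tested. Mast cell and basophil markers, whose precursors carry Itgb7 in mice, had medians of 0.34 and 1.32. Of the 7 measured, 5 were past 2-fold on the higher side in Line 3 and 0 in Line 6, where 3.57% and 2.57% of all genes were. The summed intensity of the list was 15539, 15925 and 27193, and the part of these markers in the value of Itgb7 was not tested.

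Itgb3, the beta 3 subunit of the platelet fibrinogen receptor and the vitronectin receptor, was close to wild type. Its brighter probe set read 1764, 1721 and 1561 (-0.04 and -0.17). The dimmer one read 108, 132 and 93.0, so it was above wild type in Line 6 (0.25) and below it in Line 3 (-0.19). In Line 6 the brighter probe set was at 0.02 after quantile normalization. Its alpha partner Itga2b read 613, 733 and 1001 (0.25 and 0.69), and its other partner Itgav read 1149, 1151 and 897 (0.0027 and -0.35). In Line 3, Itga2b thus lay above wild type and both Itgb3 probe sets below it. In Line 6 the sign of Itgb3 changed with the probe set and the scaling. Megakaryocyte markers, which include Itga2b, had medians of 0.68 in Line 6 and 0.19 in Line 3, with 0 of 10 past 2-fold in both lines. Their summed intensity was 6458, 7527 and 6411, with no marker at 0, and their part in these values was not tested.

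**Figure D2:**
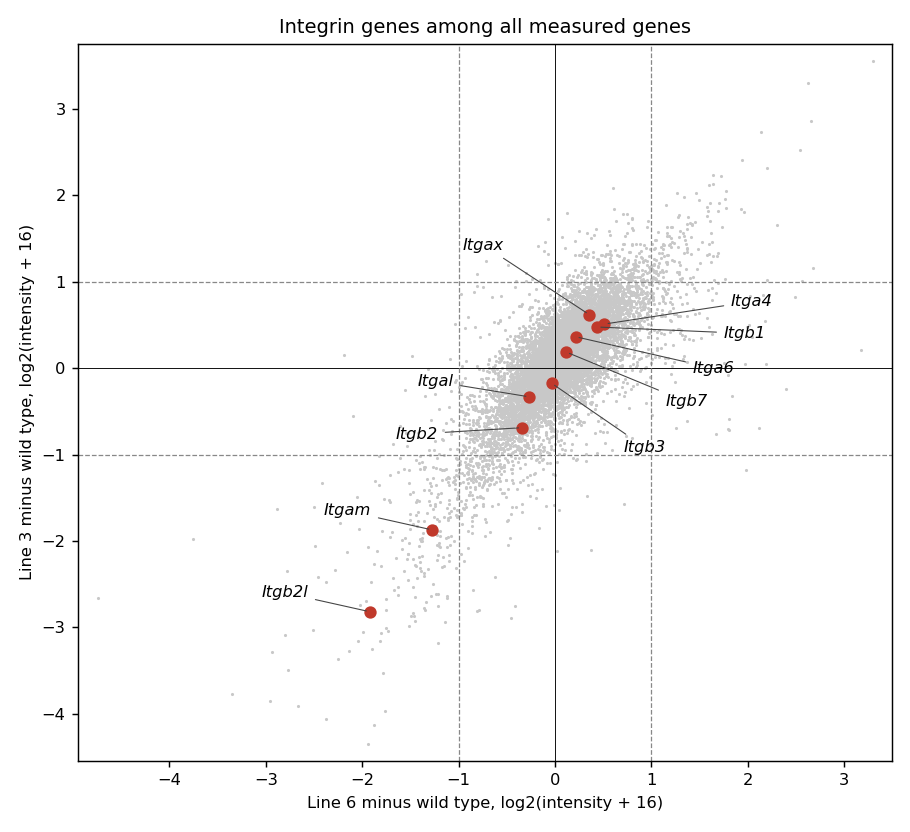
Difference from wild type of the 10864 measured genes (grey) and the 10 integrin genes (red), with Line 6 on the x axis and Line 3 on the y axis, both in log2(intensity + 16). Dashed lines mark 2-fold. Both axes share the single wild type array. Itgb2l and Itgam lie past 2-fold on both axes and the other 8 lie inside the dashed lines.

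By gene, the 10 integrins lay evenly to either side of wild type on the deposited scale. In 5 genes wild type was the highest array and in the other 5 the lowest, although centring put Itga6 and Itgb7 below it in Line 6 and quantile normalization put Itgb3 above it there. For comparison, 30.6% of all measured genes lay below wild type in both lines and 48.8% above. In Line 6 the difference of the 10 genes had a median of 0.04, and in Line 3 the median was 0.0059, against 0.06 and 0.12 over all genes. The Line 3 median was -0.03 after centring and after cyclic loess, -0.17 with the filter at percentile 75 and -0.18 with the median of probe sets, and the Line 6 median was -0.20 after centring and -0.04 with that filter. Itgb2l, Itgb2, Itgam, Itgal and Itgb3 had the order wild type, Line 6, Line 3 from high to low, an order shown by 19.7% of all genes. Itgax, Itgb1, Itga6 and Itgb7 had the opposite order, shown by 33.9% of all genes. In Itga4 the lines changed places, by less than 0.01. No spread between replicates is at hand to say which neighbours in these orders differ.

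The next comparison set Line 3 against Line 6, which carry separate line numbers of the same construct. None of the 10 genes reached 2-fold between the lines on its brightest probe set, where 1.58% of all genes passed 2-fold on the lower side in Line 3 and 0.709% on the higher side. Itgb2l came nearest, at -0.90 (1.86-fold lower in Line 3), at place 222 of 10864 counted from the most negative difference. On its dimmest probe set the difference was -1.47, between readings of 41.2 and 4.67. Itgam followed at -0.60 and Itgb2 at -0.35, and both were also lower in Line 3. The other 7 genes lay between -0.14 and 0.26, the highest being Itgax. The differences of all genes between the lines had an SD of 0.38, in which noise and differences of biology cannot be told apart.

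**Figure D3:**
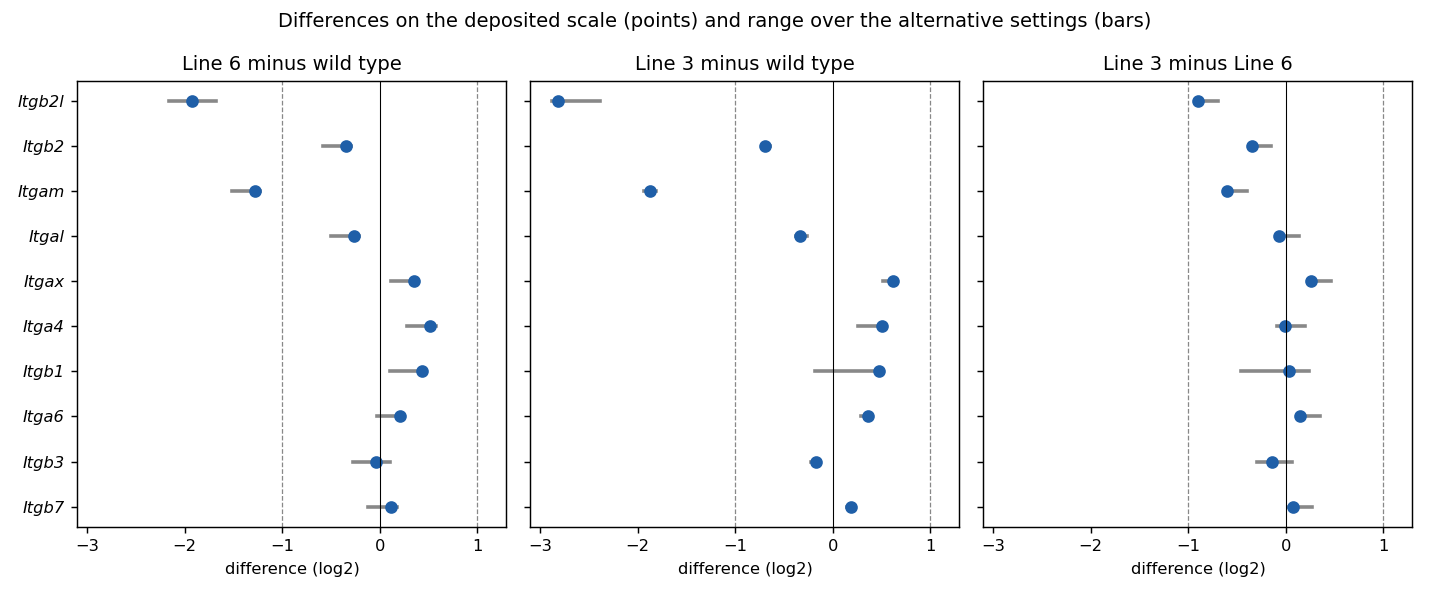
Differences of the 10 integrin genes in log2 for Line 6 minus wild type, Line 3 minus wild type and Line 3 minus Line 6. Blue points are values on the deposited scale, grey bars span the alternative scalings, filters, probe set choices and pseudocounts, and dashed lines mark 2-fold. The bars of Itgb2l and Itgam stay past 2-fold in both lines, running from -2.16 to -1.68 and from -1.51 to -1.23 in Line 6.

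The genes whose pair of differences was most like that of Itgb2l were Lrg1 (-1.99 and -3.05), Cd33 (-1.80 and -3.06) and Il1rn (-1.49 and -2.87). Likeness was the Euclidean distance between the pairs over the 3 arrays, among genes of a mean brightness within 1 on the log2 scale. The distances were 0.243, 0.270 and 0.432 among 4058 candidates. Lrg1 read 4621, 1149 and 543 in wild type, Line 6 and Line 3, close to the profile of Itgb2l. Lrg1 encodes a secreted leucine-rich glycoprotein, Cd33 a sialic acid-binding lectin of myeloid cells and Il1rn the interleukin 1 receptor antagonist. Nearest to Itgam were Asb7 (-1.27 and -1.90), Plaur (-1.24 and -1.83) and Pla2g7 (-1.22 and -1.89), at distances of 0.029, 0.052 and 0.054 among 4149 candidates. Plaur, the urokinase receptor gene, read 4610, 1942 and 1283. Asb7 encodes a SOCS box protein and Pla2g7 a phospholipase that cleaves platelet-activating factor.

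Other integrin subunits were mostly dim. Of 17 listed, 15 were on the array and 7 were measured, and Itgad and Itga11 were not analysed here. None was past 2-fold in both lines. Itga8 read 84.6, 248 and 111, past 2-fold in Line 6 (1.39) and at 0.34 in Line 3. Itga2 read 57.6, 106 and 196, at 0.73 in Line 6 and past 2-fold in Line 3 (1.53). Both were measured only through the lines. Whether either difference is particular to its line was not tested. The median difference of the 7 was 0.25 in Line 6 and 0.22 in Line 3, with 0.02 in Line 6 after centring.

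Integrin ligands were measured for 12 of 27 genes listed. Of the 12, 10 lay above wild type in both lines, as did 48.8% of all genes. On the higher side 1, the basement membrane collagen gene Col4a1, passed 2-fold in each, where 1.35% of all genes did. It went from 39.8 in wild type to 134 and 161 (1.42 and 1.66). Col4a1 and Lamb1 were dim in wild type and entered the measured set only through the lines. The medians of the 12 were 0.55 and 0.68, and with no filter those of the 25 ligands on the array were 0.29 and 0.21, with 1 passing on the lower side in both lines and 1 on the higher side. In Line 3, 3 others were past 2-fold on the higher side and 1, Fn1, on the lower side. Among all genes, 3.57% and 4.46% were. The 3 were Vcam1, which encodes the ligand of VLA-4, the laminin chain gene Lamb1 and Cdh1, which encodes E-cadherin, the ligand of the Itgae and Itgb7 pair. Vcam1 read 1636, 2852 and 3465 (0.80 and 1.08) and is also a macrophage marker. Cdh1 read 315, 490 and 1171 (0.61 and 1.84). The ligands Fn1 (fibronectin, -0.66 and -1.28) and Thbs1 (thrombospondin 1, -1.25 and -0.84) lay below wild type. The ICAM genes that serve the beta 2 family were above it, with Icam1 at 0.43 and 0.60 and Icam2 at 0.55 and 0.76. These ligand genes other than Col4a1 were singled out after their values were seen.

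Among 23 measured genes that activate integrins or tie them to actin, 16 lay below wild type in both lines and 5 above, where 30.6% and 48.8% of all genes did. The medians were -0.29 in Line 6 (-0.53 after centring) and -0.27 in Line 3 (-0.45 with the filter at percentile 75). The actin crosslinker gene Actn1 alone passed 2-fold on the lower side in each line, where 2.07% of all genes did. It read 3984, 1488 and 864 (-1.41 and -2.19). The core activators, singled out after their values were seen, were close to wild type: the talin gene Tln1 differed by -0.05 in both lines and the kindlin 3 gene Fermt3 by -0.11 and -0.07. Among 25 measured kinases and effectors, 18 lay below wild type in both lines and 2 above, with medians of -0.17 in Line 6 (-0.41 after centring) and -0.26 in Line 3. The Src family kinase gene Fgr (4217, 1831 and 991, or -1.20 and -2.07) and the tetraspanin gene Cd9 (2068, 1022 and 738, or -1.01 and -1.47) passed 2-fold on the lower side in each line. After quantile normalization or with a pseudocount of 64, 1 gene of this list did so. The neutrophil markers described above were lower on the same arrays, and their part in these values was not tested.

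Among 13 measured genes for rolling and homing, 1 passed 2-fold on the lower side in both lines and 1 on the higher side, where 2.07% and 1.35% of all genes did. The chemokine receptor gene Cxcr2, which is also a neutrophil marker, read 3500, 1353 and 648 (-1.36 and -2.40). Esam, an endothelial adhesion molecule gene that is also on the stem cell list, read 29.7, 89.6 and 104 (1.21 and 1.40) and was measured only through Line 3. It did not pass in both lines after centring, after cyclic loess or with a pseudocount of 64. The medians were 0.20 in Line 6 and -0.05 in Line 3, with -0.03 in Line 6 after centring. All these lists were drawn up with earlier results of these data known, so their counts are descriptions.

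**Figure D4:**
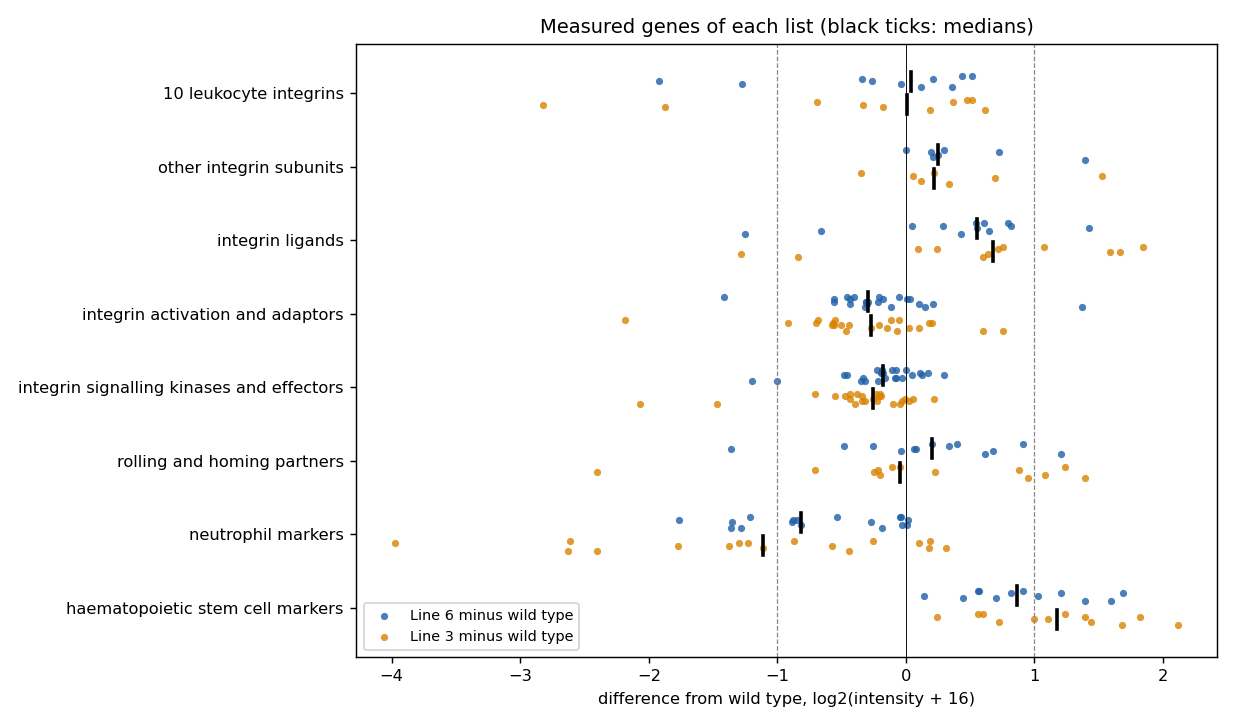
Difference from wild type in log2(intensity + 16) of each measured gene in the 10 leukocyte integrins, 5 lists of integrin partners and 2 marker lists, with Line 6 in blue and Line 3 in orange. Black ticks are medians and dashed lines mark 2-fold. The integrin medians lie at 0.04 and 0.0059, the neutrophil medians at -0.81 and -1.12 and the stem cell medians at 0.87 and 1.17.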

How the data were processed

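One Affymetrix array per genotype was analysed. Per the labels' protocols, Trizol extraction was followed by Ovation Pico WTA amplification and biotin labelling. The deposited values are intensities on a linear scale. Their mean trimmed by 2% at each end was 497 on each array, which points to a common scaling before deposit; the sources used here name no scaling, summary method or software. No detection calls were used, and 22.5% to 24.4% of values per array lay below 16.

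Of 45037 probe sets, 34945 had 1 symbol in the platform annotation, 932 had several, and 9160 stayed unnamed. RefSeq genes (GRCm38.p6) were matched through Entrez identifiers for 34741. Values were transformed as log2(intensity + 16). A gene was its probe set with the highest mean, kept when at or above an array's median on at least 1 array, which left 10864 of 18193 genes and all 10 integrins, with 21 of their 24 probe sets. Calls were at 2-fold. There was no test. Alternatives were no filter, a stricter filter (percentile 75), quantile normalization, median centring, cyclic loess, a gene's median over probe sets, plain _at probe sets, pseudocounts of 1 and 64, and limits of 1.5-fold and 3-fold. The sources name no build for the array, so apart from the promoter windows of RefSeq no coordinates are given.

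Named genes are the 10 integrins, Kdm1a, the 3 nearest genes of each integrin past 2-fold, up to 4 genes per partner list past 2-fold in both lines and up to 3 per marker list with the largest mean difference. Other genes were named after their values were seen: among the partners Itga8, Itga2, Vcam1, Lamb1, Cdh1, Fn1, Thbs1, Icam1, Icam2, Tln1, Fermt3, Itga2b and Itgav, among the markers Elane, Mpo, Prtn3, Ctsg, Esam, Spic and Kit, and the sex-linked Xist and Eif2s3y. The members and lists were chosen with earlier results of these data known. Software was R 4.3.3 with limma 3.58.1, and Python 3.11.15 with numpy 2.4.6, pandas 2.3.3 and matplotlib 3.10.9.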

Additional observations from a re-analysis of the deposited data

Results flagged for a closer look

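On 3 dim probe sets the lines lay on opposite sides of wild type, a difference between the lines that was not tested because each has 1 array. For Itgb1, its probe set reading 258 in wild type was at 0.19 in Line 6 and -0.0055 in Line 3, and that reading 62.6, below the median of every array, was at 0.37 and -0.36. For Itgb3, the probe set reading 108 in wild type was at 0.25 and -0.19. The brightest probe sets of both genes had the same sign in both lines.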

How the results depend on the processing

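Itgb2l and Itgam passed 2-fold on the lower side in each line under all 9 alternative scalings, filters, probe set choices and pseudocounts. No integrin gene was 2-fold higher in either line under these. Not all 9 could move the 2 genes. Both filters and the plain _at choice left their differences as they were, as did the median of probe sets for Itgam, which has 1 probe set. At a limit of 3-fold, 1 gene (Itgb2l) was lower in Line 6 and in both lines, where 0.626% and 0.488% of all genes were. At a limit of 1.5-fold, Itgax was higher in Line 3 (1 gene) and Itgb2 joined the lower genes there (3 genes). At that limit 2 genes (Itgb2l and Itgam) were lower in Line 3 than in Line 6. Over all genes, 15.1% were higher in Line 3 at 1.5-fold, 10.3% lower there and 5.23% lower in Line 3 than in Line 6. Of the 4 probe sets lower in both lines, 2 remained in the count with the filter at percentile 75 and 2 at 3-fold, because the filter keeps fewer probe sets and the limit fewer differences. No difference past 2-fold changed sign. Of 210 values of single genes under the 7 settings other than filters and limits, 10 changed sign, all of them within 2-fold: Itga6 and Itgb7 in Line 6 after centring, Itgb3 in Line 6 after quantile normalization and with the median of probe sets, Itgb1 in Line 3 with that median, and 5 differences between the lines. Some of the 210 could not move. The median of probe sets is fixed for the 4 genes of 1 probe set, and the plain _at choice changed Itgb1 alone. No paired analysis was possible because each group has 1 array. The lack of detection calls limits what the dim probe sets show.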
